A study of Mus musculus with 16 samples.

Results

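Remodelling of the extracellular matrix depends on enzymes that open or mature it and on inhibitors that hold those enzymes back. The 10 genes described here code for both sides of that balance: the matrix metalloproteinases Mmp2, Mmp14 and Mmp15, the secreted proteases Adamts1 and Adamts2, the protease-free relative Adamtsl2, and the 4 tissue inhibitors of metalloproteinases, Timp1, Timp2, Timp3 and Timp4. They were chosen by symbol, not by a measured value, and their Ensembl IDs were looked up in a count table of 57186 gene IDs. All 10 were found, and all 10 passed the filter on low counts, among 15206 genes tested.

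Bulk RNA sequencing was done on left ventricular tissue of 16 C57/BL6N mice in 4 groups of 4 biological replicates. The groups were mice labelled cKO-TFEB, a knockout that the design text places in cardiomyocytes only, after transverse aortic constriction (TAC, a narrowing of the aorta that loads the left ventricle with pressure), WT mice after TAC, cKO-TFEB mice after sham surgery, and WT mice after sham surgery. The transcription factor TFEB is known as a driver of lysosome and autophagy genes, and the title of the study asks how it bears on hypertrophy and failure of the pressure-loaded heart. The other cells of the ventricle, among them the fibroblasts and macrophages that make much of the matrix enzymes, therefore keep Tfeb by design, and bulk tissue reads all of them together. The Cre line, the deleted exons, whether the WT mice carry floxed alleles or Cre, age, sex and the time after surgery are not given in the sources used here.

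Matrix metalloproteinases are zinc enzymes made as inactive precursors. MMP14 sits in the cell membrane and cuts the precursor of MMP2, a gelatinase, with TIMP2 acting as the bridge between them, so that a TIMP can take part in activation as well as in inhibition. MMP15 is a second membrane-bound metalloproteinase. ADAMTS1 cleaves proteoglycans such as versican, and ADAMTS2 removes the amino-terminal propeptide of fibrillar procollagens. ADAMTSL2 has the ancillary domains of that family but no protease domain, and it binds fibrillin and latent TGF-beta binding protein. TIMP1, TIMP2 and TIMP4 are soluble, whereas TIMP3 is bound to the matrix and also inhibits ADAMTS and ADAM enzymes. TIMP4 is known for its high level in the heart. All of these proteins are regulated after transcription by secretion, activation and binding, which RNA levels do not show.

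The libraries held 12946878 to 16347388 counts. Levels are given as CPM, counts scaled to the library total with TMM factors, and differences as log2 fold changes with their standard errors (SE). Each adjusted p comes from edgeR's quasi-likelihood test with Benjamini-Hochberg adjustment over all 15206 genes, and an adjusted p under 0.05 passed. Tfeb, the targeted gene, stood at 14.7, 13.8, 13.0 and 9.37 CPM in cKO TAC and at 40.0, 34.6, 20.6 and 21.1 CPM in WT TAC. Under sham the cKO libraries held 10.04, 9.12, 9.68 and 13.0 CPM and the WT libraries 30.9, 37.4, 40.1 and 37.6 CPM. Every cKO library lay below every WT library of the same surgery (log2 -1.19, SE 0.20, adjusted p = 0.0138 under TAC, and -1.80, SE 0.20, adjusted p = 0.000604 under sham). The call under TAC was lost without WT TAC replicate 2 (adjusted p = 0.0645) and in a fit of only the groups compared (0.0543). Summed atrial transcripts (Myl7, Myl4, Sln and Bmp10) came to 3.88 to 22.8 CPM in the 8 cKO libraries. They came to 2.06, 3.36, 18.3 and 797 CPM in WT TAC and to 5.74, 249, 2392 and 131 CPM in WT sham, so that 4 of the 8 WT libraries, 3 of them sham, lay above every cKO library. The 2 highest of these, WT TAC replicate 4 and WT sham replicate 3, were left out together in an alternative chosen after seeing the data. On the first principal component, cKO sham replicate 2 had a score of -2.51 and lay nearest of the sham libraries to TAC, whose lowest score was 9.92.

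The genomic setting of the members touches 5 of their counts. Timp1 lies on chromosome X within the span of the synapsin gene Syn1, Timp3 on chromosome 10 within Syn3, and Timp4 on chromosome 6 within Syn2, in each case on the opposite strand. Adamts2 on chromosome 11 overlaps 3 predicted antisense genes, and Timp2, also on chromosome 11, overlaps Cep295nl on the same strand. Whether the counting used strand is not given in the sources used here, so reads of a member and its antisense partner cannot be told apart. The counts assigned to the synapsin partner came to 3.86% of those of Timp1, 0.336% of those of Timp3 and 8.34% of those of Timp4, summed over all libraries, and those of Cep295nl to 0.0362% of those of Timp2. Mmp2 and Mmp15 both lie on chromosome 8, Mmp14 on chromosome 14, Adamts1 on chromosome 16 and Adamtsl2 on chromosome 2.

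Promoter sequences were taken from RefSeq (GRCm38.p6), which held an entry for 9 of the 10 members, all but Mmp2. The 250 bases before the start of 4 members are shown as examples. Adamts2 and Adamtsl2 were higher after TAC in both genotypes, as were Mmp2, which has no entry, and Mmp14, which is not shown. Timp1 and Timp4 are the inhibitors whose group means differed most in fold. The sequences run 5′ to 3′ on the strand of the gene, and capitals mark GC boxes (GGGCGG on either strand) and the TATA box (TATAAA).
Adamts2, chr11:50601835-50602084, plus strand: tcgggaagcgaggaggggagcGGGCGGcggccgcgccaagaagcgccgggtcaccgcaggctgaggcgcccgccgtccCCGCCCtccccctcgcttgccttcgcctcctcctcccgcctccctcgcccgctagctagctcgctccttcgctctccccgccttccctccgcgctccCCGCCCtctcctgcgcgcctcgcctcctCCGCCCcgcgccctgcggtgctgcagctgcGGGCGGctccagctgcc
Adamtsl2, chr2:27079129-27079378, plus strand: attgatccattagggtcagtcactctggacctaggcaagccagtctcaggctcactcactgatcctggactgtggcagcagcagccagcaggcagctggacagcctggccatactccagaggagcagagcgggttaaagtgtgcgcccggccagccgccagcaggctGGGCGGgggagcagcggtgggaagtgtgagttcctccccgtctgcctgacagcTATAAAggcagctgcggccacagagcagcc
Timp1, chrX:20869916-20870165, plus strand: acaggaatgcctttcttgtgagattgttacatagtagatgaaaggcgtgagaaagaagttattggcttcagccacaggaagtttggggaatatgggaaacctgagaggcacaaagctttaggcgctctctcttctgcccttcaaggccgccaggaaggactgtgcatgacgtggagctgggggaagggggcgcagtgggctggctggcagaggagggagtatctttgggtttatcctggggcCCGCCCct
Timp4, chr6:115252206-115252455, minus strand: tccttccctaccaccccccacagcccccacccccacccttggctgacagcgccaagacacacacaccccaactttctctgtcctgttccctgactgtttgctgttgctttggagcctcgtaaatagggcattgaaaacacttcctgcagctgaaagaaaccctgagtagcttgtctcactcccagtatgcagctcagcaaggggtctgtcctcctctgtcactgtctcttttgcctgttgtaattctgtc

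A GC box stood in 8 of the 9 member promoters, with 5 in that of Adamts2, 1 in that of Adamtsl2 and 1 in that of Timp1, whereas 32.7% of all 32851 promoters of the same length held at least 1. The Timp4 window was the member promoter without it. The GC content of the member windows ran from 53.6% (Timp4) to 78% (Adamts2), against a median of 52.4% over all promoters. How far base composition accounts for the matches was not tested. TATAAA was found in Adamtsl2 and in Adamts1 (2 of 9, against 12.4% of all promoters). The E-box CACGTG, the core of the sequence that TFEB is known to bind, was in 0 of the 9 windows and in 6.02% of all promoters, and the AP-1 sequence TGANTCA was in 0 of 9 and in 6.75%. Both strands were searched. These are letter matches in a short window and say nothing on binding elsewhere or in these hearts.

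Levels were scaled by exon length, so that genes can be set side by side. In cKO TAC hearts the order by CPM per kb of exon began with Timp2 at 57.0 ± 5.84, Mmp2 at 37.8 ± 10.3, Timp1 at 30.7 ± 11.9, Timp3 at 22.7 ± 4.15 and Mmp15 at 21.8 ± 6.74 (mean ± SD, n = 4). Then came Adamts1 at 18.9 ± 8.44, Adamtsl2 at 17.6 ± 6.56 and Adamts2 at 16.8 ± 4.46. Mmp14 at 10.0 ± 1.86 and Timp4 at 9.69 ± 3.10 had the lowest means and were not separated by their spread. In WT sham hearts Timp2 and Mmp15 had the highest levels, at 35.9 ± 5.02 and 35.6 ± 4.20 CPM per kb. Then came Timp3 (14.2 ± 6.69 CPM per kb), Mmp2 (11.6 ± 1.96) and Adamts1 (11.5 ± 4.73), whose SDs overlap, then Timp4 (6.86 ± 2.39) and Mmp14 (4.17 ± 0.731). Timp1 (3.11 ± 2.03), Adamts2 (3.08 ± 0.542) and Adamtsl2 (2.91 ± 1.51 CPM per kb) were lowest in WT sham and not separated by their spread. By mean, only Timp2 and Mmp2 stood above Timp1 in cKO TAC, whereas in WT sham it was among the lowest 3. The SD of Timp1 in cKO TAC overlapped with those of Mmp2, Timp3 and Mmp15, among others, so its rank there is not separated by the spread. The exon lengths are from a GRCm38 annotation, and a short gene such as Timp1 (888 bases of exon) depends on that length more than the others.

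**Figure D1:**
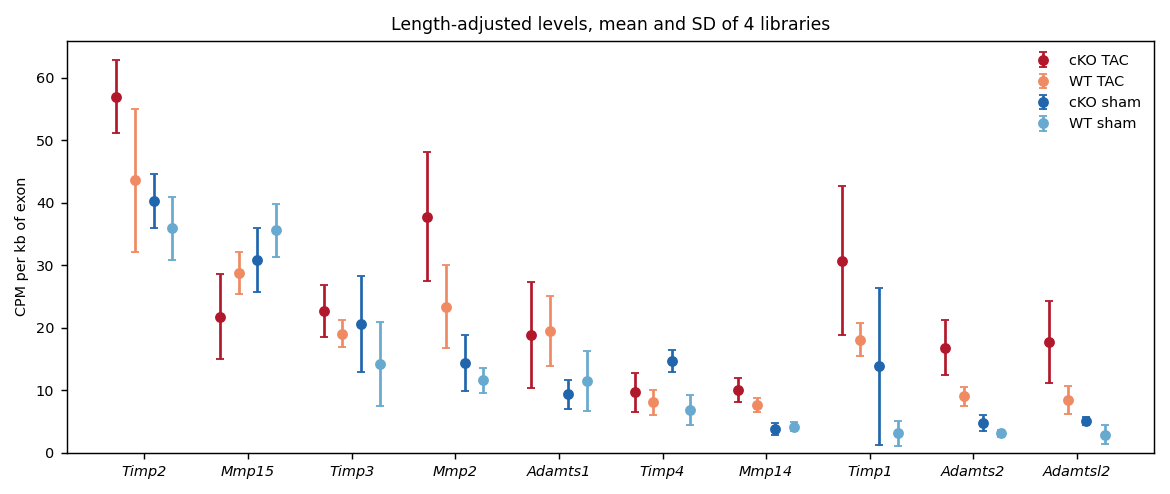
Length-adjusted level of each gene in CPM per kb of exon (y axis), as mean and SD of 4 libraries for cKO TAC, WT TAC, cKO sham and WT sham, ordered along the x axis by the WT sham level. Timp2 is at 57.0 in cKO TAC and 35.9 in WT sham, and Timp1 is at 30.7 in cKO TAC and 3.11 in WT sham.

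The comparison of TAC with sham in each genotype asks what pressure loading does to these transcripts. In cKO hearts 5 members rose after TAC (Adamts2, Mmp14, Mmp2, Adamtsl2 and Timp2) and 1 fell (Mmp15), that is 6 of 10 where 26.5% of all tested genes passed (14.2% higher and 12.4% lower). In WT hearts 5 rose (Adamts2, Mmp14, Adamtsl2, Timp1 and Mmp2) and none fell, where 15.8% of all tested genes passed (9.7% higher and 6.14% lower). The members' median log2 fold change was 1.08 in cKO and 0.82 in WT, and that of all tested genes was 0.00 in cKO and -0.01 in WT. In cKO 6 members were higher in every TAC library than in any sham library (15.5% of all tested genes were, and 13.8% lay below), and in WT 5 were (11.0%, and 8.44% below). The TAC response did not differ between genotypes past the threshold for any member: the interaction passed for 0 of 10 with edgeR, with DESeq2 and with limma voom, and 1 member, Timp4, had an unadjusted p under 0.05. Of all 15206 genes 0 passed with edgeR, 3 with DESeq2 and 0 with limma voom, and 715 had an unadjusted p under 0.05 with edgeR. With library totals only, the median log2 fold change of all genes was 0.20 in cKO and 0.11 in WT. In that fit 4013 genes were called higher and 877 lower in cKO (against 2154 and 1880 with TMM), and 2170 higher and 432 lower in WT (against 1475 and 934). The members called were then still 6 in cKO, with Adamts1 in place of Mmp15, and 5 in WT.

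**Figure D2:**
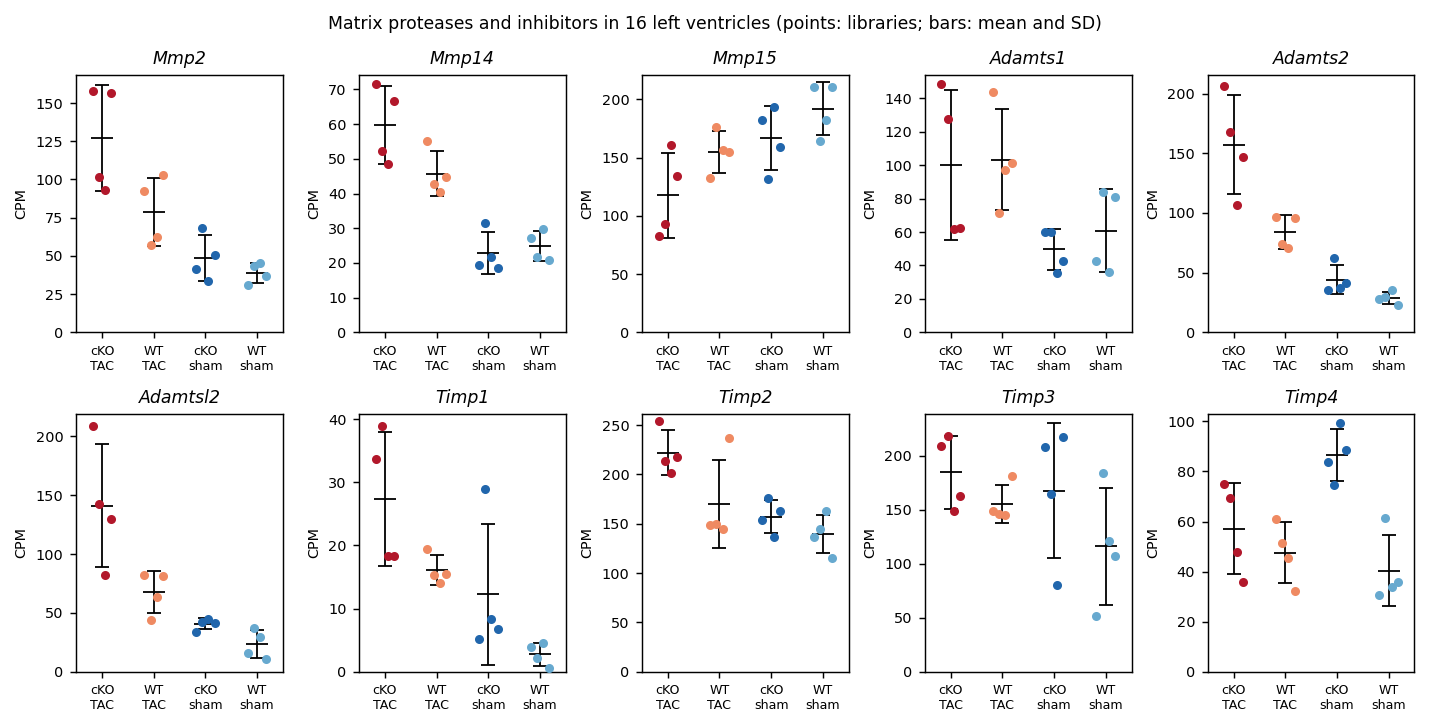
Level of each gene in CPM (y axis, linear from 0) in every library, with 4 points per group for cKO TAC, WT TAC, cKO sham and WT sham and bars for mean and SD. Adamts2 lies between 107 and 207 CPM in cKO TAC and between 22.8 and 35.1 CPM in WT sham, and Timp4 is highest in cKO sham at 74.6 to 99.4 CPM.

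Among the metalloproteinases, the gelatinase gene Mmp2 stood at 158, 102, 93.2 and 157 CPM in cKO TAC and at 41.6, 68.5, 33.4 and 50.3 CPM in cKO sham. In WT it stood at 92.6, 57.0, 62.6 and 103 CPM after TAC and at 31.0, 43.4, 45.4 and 36.6 CPM after sham. In both genotypes every TAC library was above every sham library. Mmp2 rose 2.63-fold in cKO (log2 1.39, SE 0.25, adjusted p = 0.00113) and 2.01-fold in WT (log2 1.01, SE 0.25, adjusted p = 0.0143). The call in WT was lost without WT TAC replicate 1 (log2 0.92, adjusted p = 0.0531).

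Mmp14, which codes for the membrane protease that activates MMP2, was higher after TAC in the same way. It stood at 71.5, 52.4, 48.4 and 66.7 CPM in cKO TAC and at 19.4, 31.6, 21.6 and 18.6 CPM in cKO sham. WT libraries held 55.0, 42.9, 40.4 and 44.7 CPM after TAC and 27.3, 21.6, 29.8 and 20.8 CPM after sham. The surgeries did not overlap in either genotype. Mmp14 rose 2.62-fold in cKO (log2 1.39, SE 0.17, adjusted p = 5.14e-05) and 1.84-fold in WT (log2 0.88, SE 0.17, adjusted p = 0.00284). The difference between these responses was 0.51 on the log2 scale (SE 0.24, unadjusted p = 0.0511, adjusted p = 0.946).

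Mmp15, the other membrane-bound metalloproteinase, went the opposite way in cKO. Its libraries held 82.6, 92.9, 161 and 134 CPM in cKO TAC and 183, 132, 194 and 159 CPM in cKO sham, so the ranges overlapped. In WT they held 132, 177, 156 and 155 CPM after TAC and 210.3, 165, 182 and 211 CPM after sham. Mmp15 fell in cKO TAC to 0.705 of the cKO sham level (log2 -0.50, SE 0.18, adjusted p = 0.0438) and had a log2 value of -0.31 in WT (SE 0.18, adjusted p = 0.247). The cKO call is close to the threshold: it was lost when any 1 of 8 libraries was left out (WT sham replicates 1 and 3, WT TAC replicate 3, cKO sham replicates 1, 3 and 4, and cKO TAC replicates 1 and 2), with log2 values of -0.53 to -0.38 and adjusted p of 0.0511 to 0.131. It was also lost with library totals only (log2 -0.32, adjusted p = 0.134), with no filter on low counts (0.138), in a fit of only the groups compared (0.101) and without the 2 WT libraries highest in atrial markers (0.0597), within a range of adjusted p over all left-out libraries of 0.0049 to 0.131.

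Of the ADAMTS genes, Adamts2, the procollagen amino-propeptidase, separated both the surgeries and the genotypes. It stood at 207, 168, 107 and 147 CPM in cKO TAC and at 35.9, 62.2, 37.4 and 41.6 CPM in cKO sham. In WT it stood at 96.8, 73.9, 70.4 and 95.9 CPM after TAC and at 27.8, 29.3, 35.1 and 22.8 CPM after sham. No TAC library overlapped with a sham library, and no cKO library with a WT library of the same surgery. Adamts2 rose 3.55-fold with TAC in cKO (log2 1.83, SE 0.21, adjusted p = 4.37e-05), and in WT by 1.55 on the log2 scale (SE 0.21, adjusted p = 0.000208).

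Adamtsl2, the protease-free binding partner of fibrillin, followed the same order of groups. It stood at 209, 143, 82.2 and 130.1 CPM in cKO TAC and at 33.9, 42.4, 44.8 and 41.2 CPM in cKO sham. WT libraries held 82.1, 44.0, 63.5 and 81.6 CPM after TAC and 16.2, 37.1, 29.2 and 10.6 CPM after sham. The surgeries did not overlap in either genotype. It rose 3.48-fold in cKO (log2 1.80, SE 0.35, adjusted p = 0.00253) and 2.91-fold in WT (log2 1.54, SE 0.36, adjusted p = 0.0115).

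Adamts1, a protease of versican, had the highest coefficients of variation of the members after TAC, 44.7% in cKO and 29.0% in WT. It stood at 149, 128, 61.8 and 62.3 CPM in cKO TAC, where the libraries fell into a higher and a lower pair, and at 59.8, 60.2, 35.6 and 43.0 CPM in cKO sham. In WT it stood at 144, 71.3, 97.1 and 101 CPM after TAC and at 42.4, 83.8, 36.2 and 81.2 CPM after sham. The cKO groups came close without overlap, and the WT groups overlapped. The log2 value was 1.01 in cKO (SE 0.36, adjusted p = 0.0526) and 0.76 in WT (SE 0.36, adjusted p = 0.163), so neither passed. In cKO it passed without WT sham replicate 3 (adjusted p = 0.0441), cKO TAC replicate 3 (0.0300) or cKO TAC replicate 4 (0.0380), and with library totals only (adjusted p = 0.0260), a filter that kept genes with 1 CPM or more in 4 libraries (0.0481) and the DESeq2 Wald test (0.0260), while the highest adjusted p over the left-out libraries was 0.180.

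The 4 inhibitor genes did not share a pattern. Timp1, a soluble inhibitor, had the lowest counts of the members and the largest fold change. It stood at 33.6, 38.9, 18.3 and 18.3 CPM in cKO TAC and at 19.5, 15.4, 14.0 and 15.5 CPM in WT TAC. Under sham it stood at 5.15, 28.9, 8.26 and 6.78 CPM in cKO and at 3.90, 2.09, 4.51 and 0.541 CPM in WT, where the lowest library held 7 counts. It rose 5.79-fold with TAC in WT (log2 2.53, SE 0.61, adjusted p = 0.0143), without overlap. In cKO the log2 value was 1.14 (SE 0.52, adjusted p = 0.123), and cKO sham replicate 2 lay among the TAC libraries. Without that library the cKO value was 2.02 with an adjusted p of 0.00298, and with limma voom it was 1.41 with an adjusted p of 0.0355, over a range of adjusted p of 0.00298 to 0.280 for left-out libraries. The difference between the responses of the genotypes did not pass (log2 -1.39, SE 0.80, adjusted p = 0.946), and it was -0.51 without cKO sham replicate 2, within a range of -1.73 to -0.51 over the left-out libraries.

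Timp2, the soluble inhibitor that bridges MMP14 and MMP2, had the highest level per length. It stood at 255, 214, 202 and 218 CPM in cKO TAC and at 153, 176, 136 and 163 CPM in cKO sham, without overlap. In WT it stood at 148, 149, 145 and 237 CPM after TAC and at 137, 145, 163 and 115 CPM after sham, and the WT groups overlapped apart from WT TAC replicate 4. Timp2 rose 1.41-fold in cKO (log2 0.50, SE 0.15, adjusted p = 0.0178), and its value in WT was 0.28 (SE 0.15, adjusted p = 0.200). The cKO call was lost without cKO sham replicate 3 (log2 0.43, adjusted p = 0.0636) or cKO TAC replicate 1 (0.42, 0.0684). With atrial transcripts as a covariate the WT value was 0.43 with an adjusted p of 0.0228, against 0.122 to 0.706 over the left-out libraries.

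Timp3, the matrix-bound inhibitor, spread widely within the sham groups. It stood at 209, 218, 149 and 163 CPM in cKO TAC and at 149, 146, 145 and 181 CPM in WT TAC. Under sham it stood at 208, 164, 80.7 and 217 CPM in cKO and at 51.5, 184, 121 and 107 CPM in WT. All 4 groups overlapped. The log2 value for TAC was 0.14 in cKO (SE 0.33, 95% interval -0.58 to 0.86, adjusted p = 0.804) and 0.42 in WT (SE 0.33, 95% interval -0.30 to 1.14, adjusted p = 0.420).

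Timp4, the inhibitor known from heart muscle, was highest in the unloaded cKO hearts. It stood at 74.9, 69.5, 48.0 and 36.0 CPM in cKO TAC and at 61.1, 51.5, 45.3 and 32.4 CPM in WT TAC. Under sham it stood at 83.6, 74.6, 99.4 and 88.7 CPM in cKO and at 30.6, 61.3, 33.8 and 36.0 CPM in WT. Each cKO sham library lay above each WT sham library, and 1 of the 4 cKO TAC libraries overlapped with the cKO sham range. The log2 value for TAC was -0.60 in cKO (SE 0.25, adjusted p = 0.0943) and 0.23 in WT (SE 0.26, adjusted p = 0.577), and the difference between them was -0.83 (SE 0.36, unadjusted p = 0.0359, adjusted p = 0.946). The cKO value passed without WT sham replicate 2 (-0.60, adjusted p = 0.0483), and with the DESeq2 Wald test (-0.61, adjusted p = 0.0445), over a range of 0.0483 to 0.2202 for left-out libraries.

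The comparison of cKO with WT asks what loss of TFEB does in the loaded and in the unloaded heart. Under TAC 1 member passed, Adamts2, where 1.78% of all tested genes passed (0.598% higher and 1.18% lower, that is 91 and 180 genes, or 116 and 118 with library totals only). Under sham 0 members passed with edgeR, where 1.17% of all tested genes did (0.618% higher and 0.552% lower). There 4 members had an unadjusted p under 0.05, as did 15.0% of all tested genes (2284 genes). DESeq2 called 2 members (Timp1 and Timp4) and 3.59% of all tested genes, and limma voom called 1 member (Timp4) and 1.13%. The members' median log2 fold change was 0.39 under TAC and 0.42 under sham, and that of all tested genes 0.00 and -0.01. Higher in every cKO library than in any WT library were 2 members under TAC (Adamts2 and Adamtsl2, where 4.89% of all tested genes were and 5.11% lay below) and 3 under sham (Adamts2, Timp1 and Timp4, where 4.0% were and 3.59% lay below). Genes without overlap in either direction made up 29.3% with TAC in cKO, 19.5% with TAC in WT, 10.0% between genotypes under TAC and 7.59% under sham. These comparisons share their groups with the TAC comparisons, so they are not independent of them.

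Under TAC, Adamts2 was 1.87-fold higher in cKO, with means of 157 ± 41.6 CPM in cKO and 84.2 ± 14.0 CPM in WT (log2 0.90, SE 0.20, adjusted p = 0.0354). The call was lost when any 1 of 7 libraries was left out (WT TAC replicates 2, 3 and 4, cKO sham replicate 4, and cKO TAC replicates 1, 2 and 4), with log2 values of 0.73 to 0.96 and adjusted p of 0.0505 to 0.142. It was also lost with no filter on low counts (adjusted p = 0.0864), in a fit of only the groups compared (0.0612) and without the 2 WT libraries highest in atrial markers (0.0501), and the lowest adjusted p over the left-out libraries was 0.00578. Adamtsl2 was 2.08-fold as high in cKO (log2 1.06, SE 0.34) without overlap, but its adjusted p of 0.126 did not pass. Mmp2 (log2 0.69, SE 0.25, adjusted p = 0.154), Mmp14 (0.38, SE 0.17, 0.247) and Mmp15 (-0.40, SE 0.18, 0.254) did not pass either. With atrial transcripts as a covariate Mmp2 passed (0.90, adjusted p = 0.0412, against 0.0765 to 0.431 over the left-out libraries). Without cKO TAC replicate 3 Mmp15 passed (-0.59, adjusted p = 0.0429). The remaining intervals were wide, for example -0.81 to 0.71 for Adamts1, whose value of -0.05 turned positive without WT TAC replicate 1 (0.15), cKO TAC replicate 3 (0.13) or cKO TAC replicate 4 (0.12) and with library totals only (0.05). Timp1 (log2 0.76, SE 0.51, adjusted p = 0.495), Timp3 (0.25, SE 0.33, 0.769) and Timp4 (0.26, SE 0.25, 0.659) did not pass.

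For Timp2 under TAC 1 WT library decided the call. The value was 0.39 (SE 0.15, adjusted p = 0.173) with all libraries. Without WT TAC replicate 4, which had 237 CPM against 145 to 149 CPM in the other WT TAC libraries, it was 0.58 with an adjusted p of 0.0332. With atrial transcripts as a covariate it was 0.56 (adjusted p = 0.0200) and without the 2 WT libraries highest in atrial markers 0.59 (0.0240), whereas left-out libraries gave up to 0.471. Atrial transcripts summed to 797 CPM in WT TAC replicate 4, and whether they bear on Timp2 was not tested beyond these fits. General fibroblast markers were also highest in that library, at 2395 CPM, and their part was not tested.

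Under sham the widest gap relative to its error was that of Timp4. Its mean was 86.6 ± 10.3 CPM in cKO and 40.4 ± 14.1 CPM in WT, a ratio of 2.14 (log2 1.10, SE 0.26, adjusted p = 0.0542). It passed without WT sham replicate 2 (log2 1.37, adjusted p = 0.0129), WT TAC replicate 4 (1.09, 0.0408) or cKO TAC replicate 4 (1.09, 0.0366). It also passed with the DESeq2 Wald test (adjusted p = 0.00122), limma voom (0.0434) and a fit of only the groups compared (0.0284), and left-out libraries gave up to 0.149. Timp1 averaged 12.3 ± 11.2 CPM in the cKO libraries and 2.76 ± 1.80 CPM in the WT libraries (log2 2.15, SE 0.61, adjusted p = 0.113). Without cKO sham replicate 2 its value was 1.27. The procollagen peptidase gene Adamts2 averaged 44.3 ± 12.2 CPM in the cKO libraries and 28.8 ± 5.06 CPM in the WT libraries (log2 0.62, SE 0.21, adjusted p = 0.158), without overlap. Adamtsl2 had a log2 value of 0.80 (SE 0.36, adjusted p = 0.311). Intervals at 95% for the others ran from -0.50 to 0.24 for Mmp14, from -0.22 to 0.84 for Mmp2 and from -0.14 to 0.48 for Timp2. They ran from -0.57 to 0.17 for Mmp15, from -1.07 to 0.48 for Adamts1 and from -0.19 to 1.25 for Timp3.

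Averaged over both surgeries, 4 members were higher in cKO and none lower, where 9.06% of all tested genes passed (4.21% higher and 4.85% lower, that is 640 and 737 genes, or 819 and 515 with library totals only), and the members' median was 0.45 against -0.01 for all tested genes. They were Adamts2 (log2 0.76, SE 0.15, adjusted p = 0.00566), Timp4 (0.68, SE 0.18, 0.0307), Adamtsl2 (0.93, SE 0.25, 0.0341) and Timp1 (1.46, SE 0.40, 0.0393). Adamts2 passed under each alternative run and without each library, with adjusted p of 0.00117 to 0.0162 over left-out libraries. The other 3 calls depended on single libraries and on the fit. All 3 were lost with no filter on low counts (adjusted p = 0.0909 for Timp4, 0.0810 for Adamtsl2 and 0.0827 for Timp1). With atrial transcripts as a covariate Timp4 (log2 0.51, adjusted p = 0.198) and Timp1 (1.65, 0.0564) did not pass, nor did they without the 2 WT libraries highest in atrial markers (0.57, 0.0740 for Timp4 and 1.62, 0.0609 for Timp1). Timp1 was also lost with limma voom (0.0648) and with the replicate number as a block (0.0504), and Adamtsl2 with the block (0.0664). That of Timp4 was lost when any 1 of 10 libraries was left out (WT sham replicates 1, 3 and 4, WT TAC replicates 2, 3 and 4, cKO sham replicates 3 and 4, and cKO TAC replicates 1 and 2; adjusted p of 0.0502 to 0.0759). That of Adamtsl2 was lost when any 1 of 9 was left out (WT sham replicate 1, WT TAC replicates 2 and 3, cKO sham replicates 2, 3 and 4, and cKO TAC replicates 1, 2 and 4; 0.0514 to 0.0792). That of Timp1 was also lost when any 1 of 9 was left out (WT sham replicates 1, 2 and 4, WT TAC replicates 2, 3 and 4, cKO sham replicate 2, and cKO TAC replicates 1 and 2; 0.0506 to 0.0814). Among the members that missed, Mmp2 passed without cKO sham replicate 3 (log2 0.57, adjusted p = 0.0494), Mmp15 without cKO TAC replicate 3 (-0.39, 0.0276) and Timp2 without WT TAC replicate 4 (0.37, 0.0114). With atrial transcripts as a covariate Mmp2 (0.78, 0.0251) and Timp2 (0.50, 0.00873) passed. Mmp2 also passed with the DESeq2 Wald test (0.49, 0.0320), and Timp2 without the 2 WT libraries highest in atrial markers (0.42, 0.00557).

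**Figure D3:**
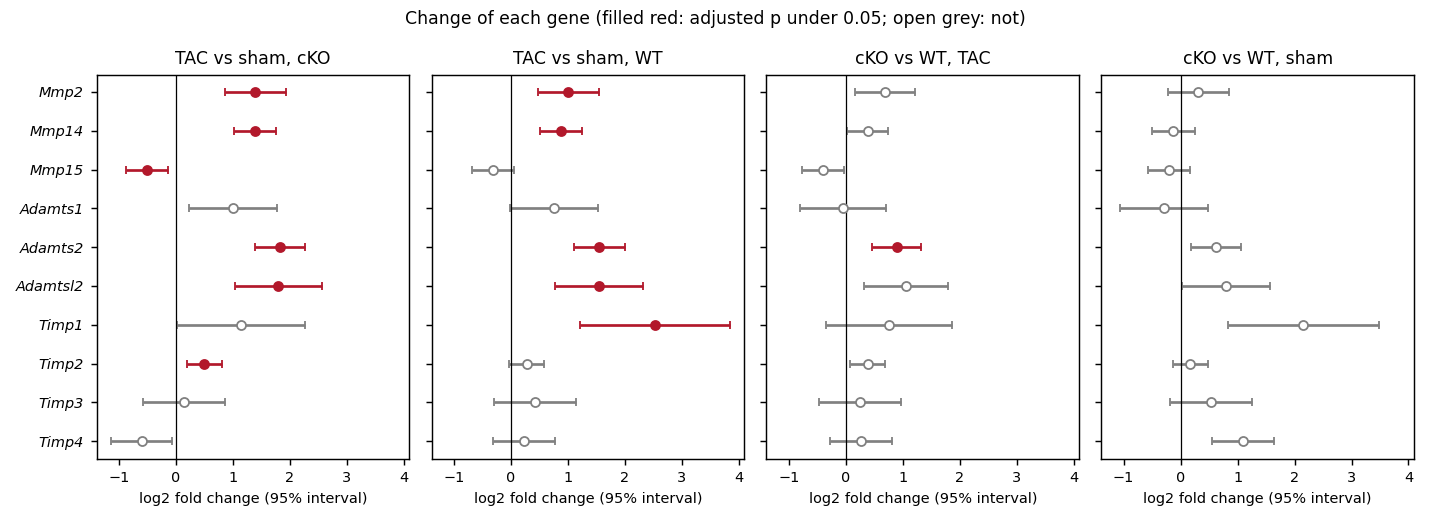
Log2 fold change (x axis) of each gene with its 95% interval in 4 comparisons, TAC against sham in cKO and in WT and cKO against WT under TAC and under sham, with filled red points for an adjusted p under 0.05 and open grey points for the rest. Adamts2 is at 1.83 and 1.55 in the TAC panels and is the filled point of the cKO panels, at 0.90 under TAC.

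A ratio of 2 genes within a library does not depend on the scaling between libraries, and 4 such ratios of raw counts were compared: 3 of a protease to an inhibitor and 1 of 2 inhibitors. None of the 16 two-sided exact permutation tests (4 against 4, smallest possible p 0.0286) passed after adjustment over all 16, with a lowest adjusted p of 0.114. With this smallest p, a single ratio could not pass the adjustment unless many of the 16 comparisons separated fully at once. The lack of a pass therefore does not show that the ratios were unchanged. Their size depends on the lengths of both genes, so only differences between groups are read. The ratio of Mmp2 to Timp2 was 0.620, 0.475, 0.462 and 0.719 in cKO TAC and 0.271, 0.390, 0.245 and 0.308 in cKO sham. In WT it was 0.625, 0.382, 0.432 and 0.433 after TAC and 0.227, 0.300, 0.279 and 0.317 after sham. In both genotypes the TAC libraries lay above all sham libraries (1.87-fold in cKO and 1.65-fold in WT, exact p = 0.0286 and adjusted p = 0.114 in each). The ratio of Mmp14 to Timp2 also separated the surgeries in cKO (1.87-fold, exact p = 0.0286, adjusted p = 0.114), and in WT it was 1.54-fold with overlap (exact p = 0.0571, adjusted p = 0.152).

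The ratio of the inhibitors Timp1 and Timp4 had the widest range. It was 0.449, 0.559, 0.382 and 0.508 in cKO TAC and 0.0616, 0.388, 0.0831 and 0.0764 in cKO sham. In WT it was 0.318, 0.298, 0.309 and 0.479 after TAC and 0.128, 0.0341, 0.133 and 0.0150 after sham. The WT surgeries did not overlap (5.80-fold, exact p = 0.0286, adjusted p = 0.114), and in cKO only sham replicate 2 reached the TAC range (4.18-fold, exact p = 0.0571, adjusted p = 0.152). The ratio of Adamts1 to Timp3, a protease and the inhibitor that binds its family, was 1.64-fold with TAC in cKO (exact p = 0.114, adjusted p = 0.203) and 1.20-fold in WT (exact p = 0.571, adjusted p = 0.653). Between genotypes no ratio had an exact p under 0.05 under either surgery, the lowest being 0.0857 for Timp1 to Timp4 under TAC.

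**Figure D4:**
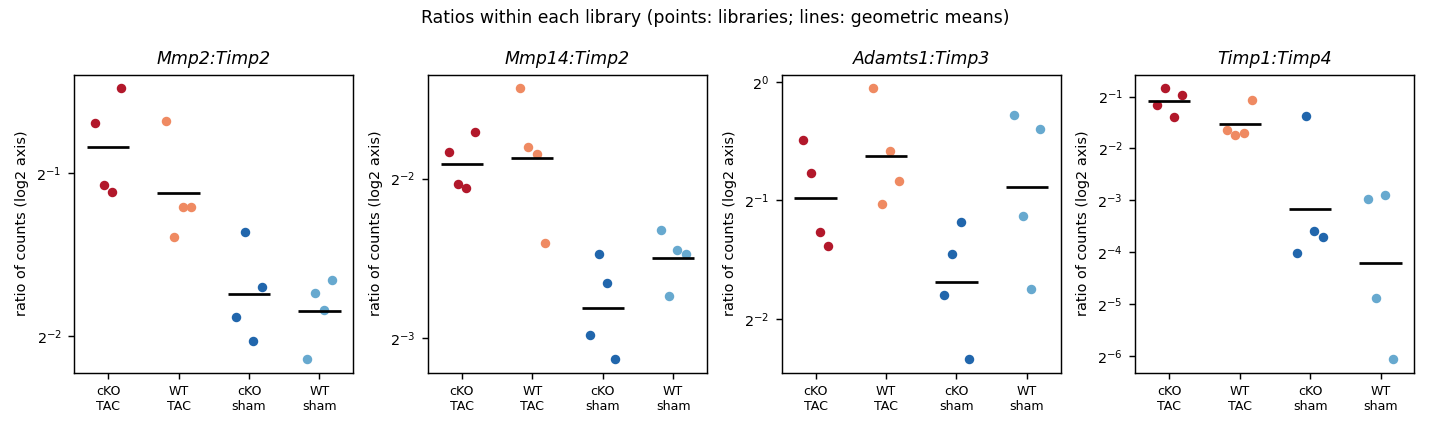
Ratio of raw counts of 2 genes within each library (y axis, log2 scale) for 4 gene pairs, with 4 points per group for cKO TAC, WT TAC, cKO sham and WT sham and a line at the geometric mean. Mmp2 to Timp2 lies between 0.462 and 0.719 in cKO TAC and between 0.227 and 0.317 in WT sham, and 1 cKO sham library of Timp1 to Timp4, at 0.388, lies among the TAC libraries.

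The wider protease and matrix genes were counted from 8 lists chosen by function, with 88 tested list entries in all. Adamts3 and Adamts14 each stand in 2 of the lists and are counted in both, Adamts14 among the rises with TAC in cKO. With TAC 40 of the 88 entries rose and 3 fell in cKO, and 35 rose and 2 fell in WT. Of all tested genes, 14.2% rose and 12.4% fell in cKO, and 9.7% rose and 6.14% fell in WT. The counts of the single lists are a description beside these shares. Of 14 tested other ADAMTS genes, 3 rose and 1 fell with TAC in cKO, and 5 rose in WT. Adamts12 rose in cKO (log2 1.85, SE 0.33, adjusted p = 0.000747) and in WT (1.56, SE 0.35, 0.00646), as did Adamts10, which is known to bind fibrillin (0.81, SE 0.11, 0.000112 in cKO and 0.48, SE 0.11, 0.00844 in WT), while Adamts7 fell in cKO (-0.81, SE 0.20, 0.00668). Of 11 tested other MMP genes, 1 rose in cKO and 2 in WT, with Mmp23 in both (log2 1.19, SE 0.21, adjusted p = 0.000759 in cKO and 0.91, SE 0.22, 0.00996 in WT). The gelatinase gene Mmp9, named after its values were seen as the relative of Mmp2, stood at 0.121 to 1.25 CPM in cKO TAC and at 0.0664 to 1.81 CPM in WT TAC, and at 0.261 to 1.12 CPM in cKO sham and 0.851 to 1.76 CPM in WT sham. Of 6 ADAMTS-like genes 2 rose in each genotype, and papilin (Papln) was the one with the smallest adjusted p in both (log2 1.15, SE 0.18 in cKO and 1.06, SE 0.18 in WT). Of 8 ADAM genes 4 rose in cKO, among them Adam10 (0.63, SE 0.09) and Adam9 (0.84, SE 0.15), and 3 in WT, where Adam12 had the smallest adjusted p (1.79, SE 0.38).

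Other inhibitors and the plasminogen system, which activates metalloproteinases through plasmin, also held genes that passed. Of 11 tested other inhibitors, 5 rose and 1 fell with TAC in cKO, and 2 rose and 1 fell in WT. In cKO the smallest adjusted p were those of Serpinf1 (1.66, SE 0.28, 0.000788), Serpine2 (1.18, SE 0.21, 0.000852), Spint2, which fell (-0.60, SE 0.12, 0.00149), and the membrane-anchored MMP inhibitor Reck (0.92, SE 0.22, 0.00594). Of 10 tested plasminogen and other matrix protease genes, 5 rose and 1 fell in cKO and 4 rose and 1 fell in WT, including the plasminogen activator Plat (0.82, SE 0.13 in cKO and 0.80, SE 0.13 in WT) and the collagen-cleaving cathepsin gene Ctsk (1.25, SE 0.23 in cKO and 1.26, SE 0.24 in WT). Of 9 tested procollagen processing genes 4 rose in cKO and 2 in WT. They included Bmp1, which removes the carboxy-terminal propeptide (0.76, SE 0.10 in cKO and 0.57, SE 0.10 in WT), and its enhancer Pcolce (0.98, SE 0.16 in cKO and 1.00, SE 0.16 in WT). Of 19 tested substrates and binding partners 16 rose in cKO and 15 in WT, with Col1a1 at 2.41 (SE 0.29) in cKO and 2.03 (SE 0.29) in WT.

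Between genotypes 1 of these 88 list entries passed under each surgery, a share of 1.14%, where 1.78% of all tested genes passed under TAC and 1.17% under sham. Under TAC it was Adam9 (log2 0.67, SE 0.15, adjusted p = 0.0349), a call that was lost when any 1 of 8 libraries was left out (WT TAC replicates 2, 3 and 4, cKO sham replicates 1 and 4, and cKO TAC replicates 1, 2 and 4; adjusted p of 0.0503 to 0.149) and with only the groups compared (0.0705) or without the 2 WT libraries highest in atrial markers (0.0672). Under sham it was Adamtsl5 (0.59, SE 0.12, adjusted p = 0.0163), lost without WT sham replicate 4 (0.0605) or cKO sham replicate 4 (0.0585) and with atrial transcripts as a covariate (0.106). Averaged over surgeries, 18 of the 88 were higher and 1 lower, where 4.21% of all tested genes were higher and 4.85% lower. Of these, 5 of 19 substrates and partners were higher in cKO, among them Nid1 (log2 0.50, SE 0.11, adjusted p = 0.0111) and Col3a1 (0.84, SE 0.20, 0.0204, or 0.0605 with no filter on low counts), as were 4 of 9 procollagen processing genes, among them Pcolce2 (0.49, SE 0.11, 0.0124) and Pcolce (0.47, SE 0.11, 0.0142). Adamtsl4 (0.49, SE 0.09, 0.00455) and Mmp23 (0.66, SE 0.15, 0.0138) were higher as well. In that average 2 of 11 other MMPs, 1 of 14 other ADAMTS, 2 of 6 ADAMTS-like, 1 of 8 ADAM, 2 of 11 other inhibitor and 1 of 10 plasminogen and matrix protease genes were higher, and 1 of the last list was lower.

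Tissue samples hold many cell types, and in bulk RNA more cells of a type and more RNA per cell cannot be told apart. Activated fibroblast and macrophage markers mostly rose with TAC, while the other marker lists, given below, did not all do so. Activated fibroblast markers (Postn, Cthrc1, Meox1, Fap and Tnc) summed to 729 to 1755 CPM in cKO TAC and 314 to 741 CPM in WT TAC. Under sham they summed to 61.2 to 188 CPM in cKO and 44.5 to 102 CPM in WT. Postn made up most of this sum, with 99140 counts over all libraries, and Meox1 was next with 11047. With TAC 5 of 5 rose in cKO and 4 of 5 in WT, while between genotypes 0 of 5 passed under TAC and 0 under sham. Macrophage markers summed to 343 to 452 CPM in cKO TAC, 251 to 342 CPM in WT TAC, 202 to 387 CPM in cKO sham and 148 to 233 CPM in WT sham. Of 7 macrophage markers 5 rose with TAC in cKO and 6 in WT, where 14.2% and 9.7% of all tested genes rose. Averaged over surgeries 5 were higher in cKO, where 4.21% of all tested genes were. Between genotypes 0 of 7 passed under TAC and 0 under sham. How far the macrophage calls depend on single libraries is not given here. The highest cKO sham sums, 387 CPM for macrophage and 188 CPM for activated fibroblast markers, both belonged to replicate 2. It is the library with 28.9 CPM of Timp1.

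General fibroblast markers overlapped between all groups in sum (1627 to 1790 CPM in cKO TAC, 1469 to 2395 CPM in WT TAC, 1529 to 2109 CPM in cKO sham and 1492 to 2043 CPM in WT sham), although 4 of 6 rose and 1 fell with TAC in cKO and 3 of 6 rose in WT. The gene that fell, Gsn, was also the most abundant of the list, with a mean of 793 ± 143 CPM in cKO TAC and 1373 ± 175 CPM in cKO sham (SD, n = 4 each), and its call was lost without cKO TAC replicate 1 (adjusted p = 0.0688), with library totals only (0.0699) and with no filter (0.0826). Between genotypes Pdgfra was higher under TAC, where Adamts2 passed, with 50.3 ± 5.73 CPM in cKO and 33.2 ± 3.00 CPM in WT (log2 0.60, SE 0.13, adjusted p = 0.0303), a call lost without WT TAC replicates 2 or 3 or cKO TAC replicates 1, 2 or 4 (0.0706 to 0.124). Averaged over surgeries, 3 of 6 (Pdgfra, Dpep1 and Lamc1) and 1 of 5 activated fibroblast markers (Tnc) were higher in cKO. Pdgfra and Tnc passed there under each alternative run and without each library. Dpep1 was lost with no filter (0.0579) and with the atrial covariate (0.0644), and Lamc1 without any 1 of 12 libraries, all but WT sham replicate 3, WT TAC replicate 1, cKO sham replicate 3 and cKO TAC replicate 3 (adjusted p up to 0.106), and under 5 other alternatives (0.0534 to 0.0949). Cardiomyocyte markers fell with TAC in cKO for 5 of 8 and in WT for 1 of 8. Between genotypes Actn2 was lower under TAC, with a mean of 2015 ± 108 CPM in cKO TAC against 2653 ± 170 CPM in WT TAC (log2 -0.40, SE 0.09, adjusted p = 0.0401). That call was lost when any 1 of 9 libraries was left out (WT sham replicate 2, WT TAC replicates 1, 2 and 3, cKO sham replicates 1 and 4, and cKO TAC replicates 1, 2 and 4; 0.0524 to 0.138) and with library totals only (0.0847), only the groups compared (0.0747) or without the 2 WT libraries highest in atrial markers (0.0511). In the average over surgeries Actn2 (-0.30, adjusted p = 0.0112) and Tnni3 (-0.57, 0.0222) were lower in cKO, Actn2 under each alternative run and Tnni3 not without WT TAC replicate 3 (0.0533) or cKO sham replicate 2 (0.0509) nor with no filter (0.0817). Of 6 endothelial markers 2 rose with TAC in each genotype, and of 6 mural markers 2 rose in each and 1 fell in cKO. Of 3 tested atrial markers 0 passed in each pairwise comparison, and 3 were lower in cKO in the average over surgeries, as was the 1 tested adipocyte marker of 4. Of 5 erythrocyte markers 0 passed, and 0 of 5 mesothelial markers reached the filter, with a sum of at most 6.06 CPM. The part of any cell type in the members' differences was not tested.

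By likeness of log2 CPM over the 16 libraries, given as a description since the libraries share their groups, Adamts2 was nearest to Col3a1, Lox and Col1a2 (Pearson r = 0.991, 0.990 and 0.989), which code for 2 fibrillar collagen chains and a collagen crosslinking enzyme. Mmp2 was nearest to Antxr1, Col14a1 and Itga11 (r = 0.984, 0.984 and 0.974), and Mmp14 to Kdelr3, Runx1 and Cdr2l (0.988, 0.986 and 0.973). Adamtsl2 was nearest to Ccn2, Map1a and Rab31 (0.965, 0.957 and 0.953). Timp1 was nearest to Itgb2 and C1qc, which are leukocyte and macrophage genes, and Sbno2 (0.968, 0.967 and 0.955). Timp2 was nearest to Lbp, Ecm1 and Ccdc80 (0.964, 0.947 and 0.942), Mmp15 to Kcnn2, Gpt and Coq8a (0.960, 0.957 and 0.957) and Timp3 to Arid4b, Dhx15 and Clip1 (0.910, 0.906 and 0.904). The weakest nearest neighbours were those of Adamts1, Zfp568, Runx3 and Rapgef5 (0.898, 0.898 and 0.890), and of Timp4, Ehd1 and Car4 (0.896 and 0.878). After subtraction of each group's mean, Adamts2 still ran with Timp1 (r = 0.80), Mmp14 (0.80) and Mmp2 (0.77) over the 16 libraries, and opposite to Mmp15 (r = -0.85). The subtraction removes the mean differences between groups only, so a response to TAC that varies between mice of a group can still enter.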

How the data were processed

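Left ventricular RNA of 16 mice was sequenced, 4 biological replicates in each of 4 groups. The authors' file is 1 table of raw read counts, deposited without normalization, with Ensembl gene IDs as rows and libraries as columns. Per the submitters' processing notes, FastQC, fastp 0.22.0, HISAT2 2.0.5, SAMtools 1.21, featureCounts 2.0.6 and the build GRCm39 were used. Strandedness, the annotation release and the treatment of multimapping reads are not given in the sources used here. Symbols, exon lengths and overlaps came from a GRCm38 annotation, which matched 51880 of 57186 IDs, so no gene coordinates are given; promoters are from RefSeq on GRCm38.p6.

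Counts were tested in R 4.3.3 with edgeR 4.0.16 (TMM, filterByExpr, robust quasi-likelihood fit, 1 mean per group, all 16 libraries, 12 residual degrees of freedom), adjusted by Benjamini-Hochberg over 15206 genes in each comparison. The biological coefficient of variation was 16.5%. SEs were taken from the F statistic. Ratios of counts used a prior count of 2 for the tests and exact permutation tests over 70 relabelings. Likeness used log2(CPM + 1). Alternatives were DESeq2 1.42.0 size factors and Wald test, library totals only, no filter, 1 CPM in 4 libraries, limma 3.58.1 voom, only the groups compared, the replicate number as a block, mitochondrially encoded genes left out, atrial transcripts as a covariate, and each library left out. The fit was tested on simulated data.

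The members, gene lists and tests were chosen with earlier results of these data known. All members are named in each pairwise comparison. In the average over surgeries and in the interaction, some members that did not pass are not named. From each other list at most 4 genes per comparison are named, those with the smallest adjusted p among those that passed. Per member the 3 genes with the highest Pearson r are named (predicted genes skipped). Fibroblast and cardiomyocyte markers are named where they passed beside the members. A few genes that these rules select are not reported here.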

Additional observations from a re-analysis of the deposited data

Results flagged for a closer look

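In 3 of the 40 groups of 4 libraries (10 genes in 4 groups) 1 library lay far from the other 3 by Dixon's criterion, which chance meets in about 1 of 20 groups. Timp1 had 28.9 CPM in cKO sham replicate 2, against 5.15 to 8.26 CPM in the other cKO sham libraries. That library also had the highest sums of its group for macrophage markers (387 CPM) and activated fibroblast markers (188 CPM). The same held for the substrates and binding partners (3912 CPM). Timp2 had 237 CPM and Timp3 had 181 CPM in WT TAC replicate 4, against 145 to 149 CPM for both genes in the other WT TAC libraries. That library held 797 CPM of atrial transcripts. It also had the highest sums of all libraries for general fibroblast markers (2395 CPM) and adipocyte markers (36.0 CPM). The part of any cell type or of atrial RNA in these values was not tested.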

How the results depend on the processing

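With TAC 6 members passed in cKO and 5 in WT, with 4 to 7 and 4 to 5 when single libraries were left out, 8 in cKO with the DESeq2 Wald test and with the replicate block, and 6 in WT with atrial transcripts as a covariate. Under sham, cKO against WT gave 0 members and 0 to 1 without single libraries, 2 with the DESeq2 Wald test, and 1 with limma voom, with only the groups compared and with the replicate block. Under TAC, cKO against WT gave 1 member, 0 to 2 without single libraries, 0 with no filter on low counts and with only the groups compared, and 3 with atrial transcripts as a covariate. The average over surgeries gave 4 members, 1 to 5 without single libraries, 1 with no filter and 2 with the replicate block. Replicate numbers only name the mice: 4 of 24 same-numbered pairs had a correlation of deviations above 0.1, and 5 of 16 libraries correlated best with their own number. The block also added calls of Adamts1 (adjusted p = 0.0438) and Timp4 (0.0494) for TAC in cKO. DESeq2 size factors and leaving out mitochondrially encoded genes moved no call.

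Values near 0 changed sign. Adamts1 between genotypes under TAC (log2 -0.05) was 0.051 with library totals only, where the median of all genes was 0.10 against 0.00 with TMM. It was -0.31 to 0.15 without single libraries. The interaction ran from -0.011 to 0.45 for Adamts1 and from -0.063 to 0.49 for Adamtsl2, and Timp3 with TAC in cKO from -0.091 to 0.29. Log2 ratios without single libraries ran from -0.027 to 0.20 for Mmp2 to Timp2 under sham, from -0.22 to 0.11 for Mmp14 to Timp2 under TAC, both between genotypes, and from -0.024 to 0.46 for Adamts1 to Timp3 with TAC in WT. The causes were not tested. Counts were low for Timp1 (7 in the lowest library), which limits its precision.

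Counts over all genes moved as well. Between genotypes under TAC 271 genes passed, 13 to 912 without single libraries (13 without WT TAC replicate 2, 912 without cKO TAC replicate 3), 438 with no filter, 838 with the DESeq2 Wald test, 152 with only the groups compared, 687 with the atrial covariate and 165 without the 2 WT libraries highest in atrial markers. Under sham 178 passed, 59 to 222 without single libraries, 546 with the DESeq2 Wald test and 98 with the atrial covariate. The average gave 1377 and 819 to 1845 without single libraries. TAC in WT gave 2409, and 1234 without WT TAC replicate 1. The interaction gave 0, 3 with the DESeq2 Wald test and 2 without the 2 WT libraries.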
